A study of Bombyx mori with 4 samples.

Results

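Among the transcribed loci of silkworm prothoracic glands kept in culture, 53 of 14622 formed a group that stood lower after 3 h than after 1 h in glands without hormone, while glands given prothoracicotropic hormone (PTTH) held about the same level at both times. Members were chosen by the measured values themselves, from the authors' FPKM (the number of fragments scaled to transcript length and to the depth of the library), each deposited with its confidence limits. A locus had to average 1 FPKM or more across the 4 libraries, which 8547 did, and these are called the tested loci. By ratios of (FPKM + 1), control 3 h had to be at least 1.5-fold below control 1 h. PTTH 3 h had to be at least 1.5-fold above control 3 h, with the lower limit of the PTTH value above the upper limit of the control value. PTTH 3 h against PTTH 1 h, and PTTH 1 h against control 1 h, had to differ by less than 1.5-fold. All 4 libraries therefore entered the choice, control 3 h is the lowest library at all 53 members by construction, and every ratio among these libraries is given below as a description, with no test.

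Ecdysteroids, the steroid hormones that set off moulting and metamorphosis, are made in insect larvae by the prothoracic gland. PTTH, a peptide made by neurosecretory cells of the brain, is its main stimulus. PTTH binds the receptor tyrosine kinase Torso on gland cells and acts through the Ras and ERK pathway, with calcium and cyclic AMP as further messengers, to raise ecdysteroid synthesis. A gland in culture is cut off from the brain, so that PTTH in the medium restores one of the signals it would receive in the larva.

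Libraries were made from glands of Bombyx mori larvae of a racial hybrid, at day 4 of the fifth instar, and all groups shared a pre-incubation of 30 min in Grace's medium. The groups were glands with 10 nM recombinant PTTH for 3 h, glands without hormone for 3 h, glands with 10 nM PTTH for 1 h and glands without hormone for 1 h. Each group is 1 library of RNA pooled from 2 preparations, each of 12 to 18 larvae, so nothing measures the spread between preparations and no p-value was computed. The glands of each pair were divided between medium with and without PTTH. Control 3 h and control 1 h thus came from different larvae, and culture time and larval pool cannot be told apart in that comparison.

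Confidence limits were read as 2 Poisson standard deviations, which gives a number of implied fragments behind each value and a counting error for each ratio. Over all loci such fragments numbered 10294000 in PTTH 3 h, 9117000 in control 3 h, 8359000 in PTTH 1 h and 8135000 in control 1 h. The errors printed below cover counting only. Gene names are not given in the table, and 0 of its identifiers matched the 18210 genes of the reference list, so the members are named by scaffold and position and their functions are not known here. For the same reason the gland was not checked against its marker genes. In pooled tissue, fewer cells of a type and less RNA per cell cannot be told apart.

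The members were mostly moderate in level and in the size of their differences. Their median was 28.5 FPKM in PTTH 3 h, 13.9 FPKM in control 3 h, 28.3 FPKM in PTTH 1 h and 24.1 FPKM in control 1 h. Their median log2 ratio of PTTH 3 h over control 3 h was 0.78, against -0.19 over all 8547 tested loci, and that of control 3 h over control 1 h was -0.82, against 0.06. A control 1.5-fold lower at 3 h than at 1 h was seen at 457 tested loci (5.35%), and PTTH 3 h 1.5-fold above control 3 h with intervals apart at 476 (5.57%). PTTH 3 h lay within 1.5-fold of PTTH 1 h at 81.6% of tested loci, and PTTH 1 h within 1.5-fold of control 1 h at 95.3%. All conditions together were met at 0.620% of tested loci. The members were 11.6% of the 457 loci with the lower control, and at 302 of those 457 PTTH 3 h was within 1.5-fold of control 3 h. Nothing about the members can be read from these shares, since they defined the group.

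Few members were far past the thresholds. A ratio of at least 2-fold with intervals apart in PTTH 3 h over control 3 h was held by 13 members, and by 2.40% of tested loci. Control 3 h was at least 2-fold below control 1 h at 10 members, and at 1.24% of tested loci. The rule demanded 1.5-fold in both ratios, so larger shares among members were fixed in advance. Of the 476 tested loci past 1.5-fold in the PTTH ratio with intervals apart, 205 reached 2-fold. Of the 457 past it in the control ratio, 106 did. Only 5 members were at least 2-fold apart in both ratios, at nscaf2674 615917 to 617309, nscaf2770 1009190 to 1010060, nscaf2883 1863278 to 1863795, nscaf2674 7112672 to 7113215 and nscaf3022 779506 to 781988. The first of them is listed at 0 FPKM in control 3 h, and the last has 1.01 implied fragments there. The rule set no demand on the limits of the controls, and at 49 members the limits of control 3 h and control 1 h lay apart as well. The 1.5-fold lower control with limits apart was found at 3.79% of tested loci, which is 324 of the 457 with the lower control. The limits of the controls overlapped at 4 members, nscaf2877 7893 to 9539, nscaf2828 700447 to 700918, nscaf2136 2705653 to 2706007 and nscaf3022 779506 to 781988.

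**Figure D1:**
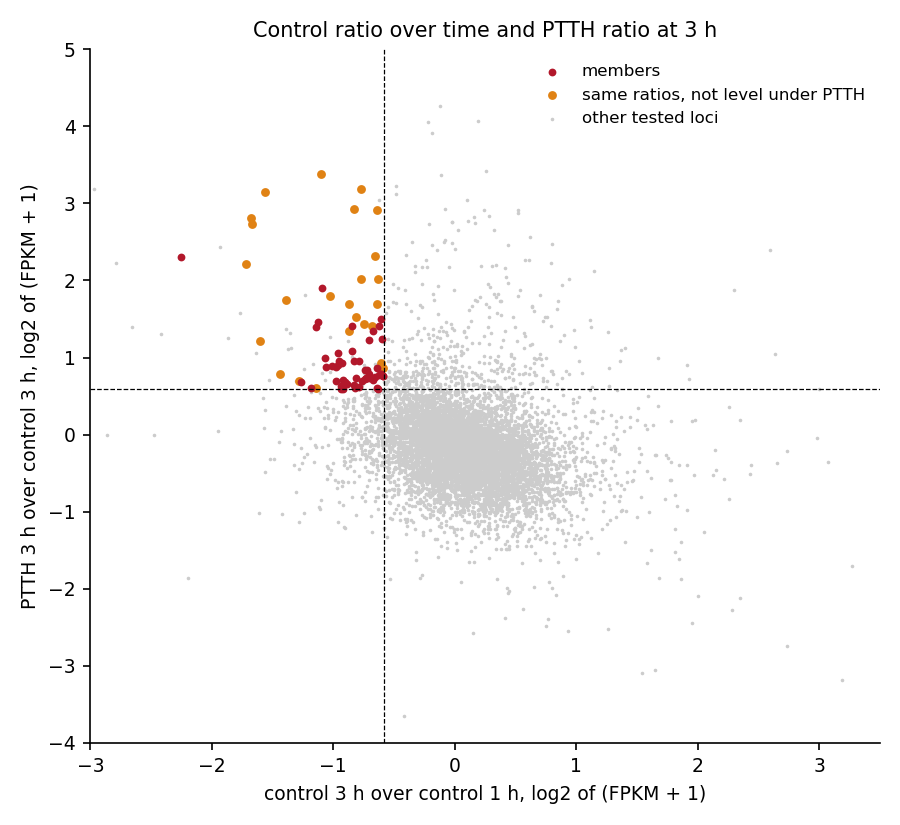
Log2 ratio of control 3 h over control 1 h (horizontal) against log2 ratio of PTTH 3 h over control 3 h (vertical), both of (FPKM + 1), for the tested loci, with dashed lines at 1.5-fold. Members (red) fill the upper left corner near the dashed lines, the 25 loci that met both ratios without being level under PTTH (orange) reach higher, and 3 tested loci, 1 of them a member, lie outside the plotted range; both axes share the control 3 h library.

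The most abundant member, XLOC_003452 at nscaf2674 615917 to 617309, belongs to the group through a single entry. It had 16308 FPKM in PTTH 3 h, was listed at 0 in control 3 h with both limits at 0, and had 13889 FPKM in PTTH 1 h and 14246 FPKM in control 1 h. The other libraries were thus within 1.5-fold of each other, and no fold is given against the entry of 0. It was the only locus with a mean of at least 1000 FPKM that was listed at 0 in exactly 1 library. Whether that entry is a measured absence or a failed estimate was not tested. Without it 52 members remain, with the same median log2 ratios, 0.78 for PTTH 3 h over control 3 h and -0.82 for control 3 h over control 1 h.

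The next most abundant members were short loci. At nscaf2951 682832 to 683029, a locus of 197 bp, the values were 1410 FPKM (limits 1167 to 1654) in PTTH 3 h, 930 FPKM (765 to 1095) in control 3 h, 1714 FPKM (1427 to 2000) in PTTH 1 h and 2111 FPKM (1770 to 2452) in control 1 h. Only 127 implied fragments stand behind the control 3 h value. How the length of so short a locus entered its FPKM is not given, so its level and rank are uncertain. The PTTH 3 h level was 1.52-fold that of control 3 h and 66.8% of that of control 1 h, so PTTH glands kept part of the early level here.

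At nscaf2770 1009190 to 1010060 the counts were far larger. The locus had 1140 FPKM (1123 to 1158) in PTTH 3 h, 432 FPKM (421 to 443) in control 3 h, 1261 FPKM (1241 to 1281) in PTTH 1 h and 954 FPKM (936 to 971) in control 1 h. PTTH 3 h was 2.64-fold above control 3 h, a log2 ratio of 1.40 ± 0.02 (counting SE), and control 3 h stood at 45.3% of control 1 h. With at least 6145 implied fragments in each library, it was the most deeply counted member apart from XLOC_003452.

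At nscaf2883 1863278 to 1863795 the levels were 388 FPKM (348 to 429) in PTTH 3 h, 140 FPKM (116 to 164) in control 3 h, 313 FPKM (275 to 352) in PTTH 1 h and 307 FPKM (267 to 348) in control 1 h. The log2 ratio of PTTH 3 h over control 3 h was 1.46 ± 0.14 there. The locus at nscaf2828 697530 to 697775 had 462 FPKM in PTTH 3 h, 247 FPKM in control 3 h, 547 FPKM in PTTH 1 h and 480 FPKM in control 1 h. Its limits were wide, from 352 to 572 FPKM in PTTH 3 h and from 177 to 317 FPKM in control 3 h, and 49.5 implied fragments support the control value.

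The remaining members above 100 FPKM on average had many fragments. The locus at nscaf3048 560183 to 565666 had 240 FPKM in PTTH 3 h, 122 FPKM in control 3 h, 233 FPKM in PTTH 1 h and 218 FPKM in control 1 h. The locus at nscaf2857 8793 to 17414 had 203 FPKM in PTTH 3 h, 119 FPKM in control 3 h, 177 FPKM in PTTH 1 h and 180 FPKM in control 1 h. The locus at nscaf2986 2840333 to 2840997 had 181 FPKM in PTTH 3 h, 105 FPKM in control 3 h, 172 FPKM in PTTH 1 h and 161 FPKM in control 1 h. At these loci control 3 h was the one low library, at 56.01%, 66.2% and 65.4% of control 1 h in the order given. In all, 9 members averaged at least 100 FPKM, 34 lay between 10 and 100 FPKM and 10 lay below 10 FPKM. By mean FPKM, XLOC_003452 ranked 3 and the 197 bp locus on nscaf2951 ranked 100 among the tested loci, and the other members ranked lower.

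**Figure D2:**
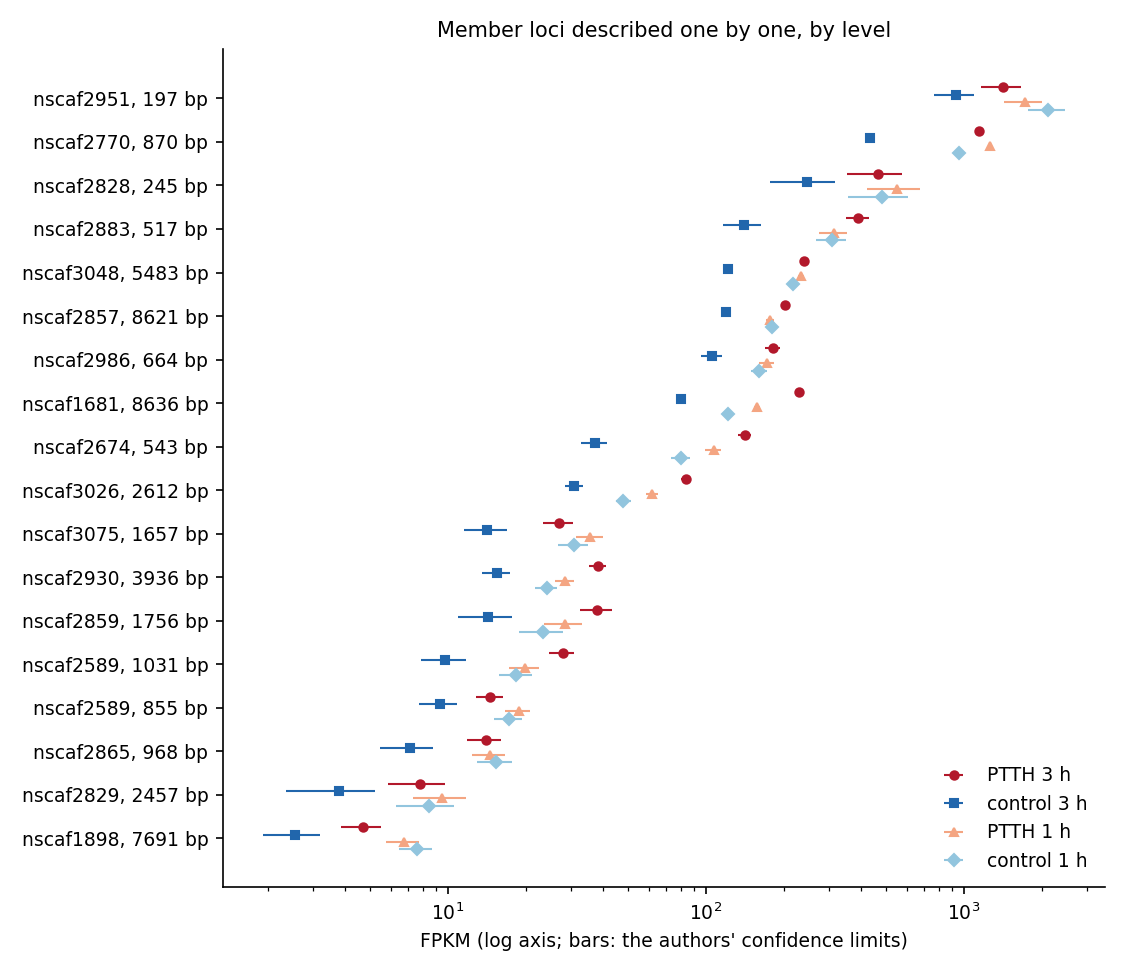
FPKM (log axis) of the 18 members described one by one, each labelled by its scaffold and span, in PTTH 3 h, control 3 h, PTTH 1 h and control 1 h; bars are the authors' confidence limits. Control 3 h is the lowest library at each of them, as the rule requires, while the place of PTTH 3 h relative to the libraries of 1 h differs between loci.

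How PTTH 3 h compared with control 1 h was bounded only loosely by the rule, and the members differed in it. The limits overlapped at 39 members, where PTTH 3 h had a median of 99.9% of the control 1 h level and control 3 h had 54.5%. PTTH 3 h lay above control 1 h, with limits apart, at 11 members (17.7% of tested loci did so). It lay below control 1 h, with limits apart, at 3 members (27.5% of tested loci). Over the 53 members the PTTH 3 h level ran from 61.7% to 187% of control 1 h, with a median of 102%. By any amount, it was above control 1 h at 29 members (54.7%), against 40.3% of tested loci. Both libraries entered the rule, so these shares among members are shaped by their choice, and their difference from the tested loci was not tested.

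Among the 11 members whose PTTH 3 h level exceeded control 1 h, the largest excess was at nscaf1681 277195 to 285831. Its level was 229 FPKM (223 to 234) in PTTH 3 h, 80.02 FPKM (76.6 to 83.4) in control 3 h, 158 FPKM (153 to 162) in PTTH 1 h and 122 FPKM (118 to 127) in control 1 h. All 4 libraries had limits apart from each other, and the log2 ratio of PTTH 3 h over PTTH 1 h, 0.53 ± 0.03, was the closest of any member to the 1.5-fold bound. This locus was therefore higher with PTTH at both times, as well as lower over time without it.

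A similar order of libraries was seen at nscaf2674 7112672 to 7113215, with 141 FPKM (133 to 149) in PTTH 3 h, 37.1 FPKM (32.7 to 41.4) in control 3 h, 107 FPKM (99.4 to 114) in PTTH 1 h and 79.8 FPKM (73.2 to 86.5) in control 1 h. Its log2 ratio of PTTH 3 h over control 3 h, 1.90 ± 0.09, was the largest among the 50 members with at least 20 implied fragments in each library. At nscaf3026 545805 to 548417 the values were 83.7 FPKM (79.8 to 87.6) in PTTH 3 h, 30.8 FPKM (28.3 to 33.4) in control 3 h, 61.9 FPKM (58.4 to 65.3) in PTTH 1 h and 47.8 FPKM (44.6 to 51.1) in control 1 h. Both loci had limits apart between all libraries, in the same order as at nscaf1681.

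Lower in level, nscaf2930 1835126 to 1839062 stood at 38.1 FPKM (35.3 to 40.9) in PTTH 3 h, 15.5 FPKM (13.6 to 17.4) in control 3 h, 28.4 FPKM (25.9 to 30.8) in PTTH 1 h and 24.1 FPKM (21.7 to 26.5) in control 1 h. At nscaf2859 669955 to 671711 the levels were 37.9 FPKM in PTTH 3 h, 14.3 FPKM in control 3 h, 28.3 FPKM in PTTH 1 h and 23.3 FPKM in control 1 h. The limits of PTTH 1 h and control 1 h overlapped at both, while those of PTTH 3 h and control 3 h lay far apart. Levels at nscaf3027 4856073 to 4857135 were 48.05 FPKM (44.9 to 51.2) in PTTH 3 h, 22.1 FPKM (19.9 to 24.3) in control 3 h, 49.1 FPKM (45.8 to 52.3) in PTTH 1 h and 40.7 FPKM (37.6 to 43.8) in control 1 h. There the PTTH libraries had overlapping limits, and each lay above control 1 h.

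PTTH 3 h remained below control 1 h, with limits apart, at the 197 bp locus on nscaf2951 and at 2 further members. At nscaf1898 11049671 to 11057362 the values were 4.67 FPKM (3.85 to 5.49) in PTTH 3 h, 2.55 FPKM (1.92 to 3.18) in control 3 h, 6.73 FPKM (5.73 to 7.72) in PTTH 1 h and 7.57 FPKM (6.46 to 8.69) in control 1 h. At nscaf1681 3854113 to 3856950 they were 6.54 FPKM (5.65 to 7.43) in PTTH 3 h, 4.00 FPKM (3.27 to 4.73) in control 3 h, 7.70 FPKM (6.71 to 8.69) in PTTH 1 h and 8.57 FPKM (7.47 to 9.66) in control 1 h. PTTH 3 h stood at 61.7% and 76.4% of control 1 h at these loci. PTTH 3 h was below PTTH 1 h with limits apart at nscaf1898, while the limits of the PTTH libraries overlapped at nscaf1681 3854113 to 3856950, with a log2 ratio of -0.21 ± 0.12, and at the locus on nscaf2951.

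**Figure D3:**
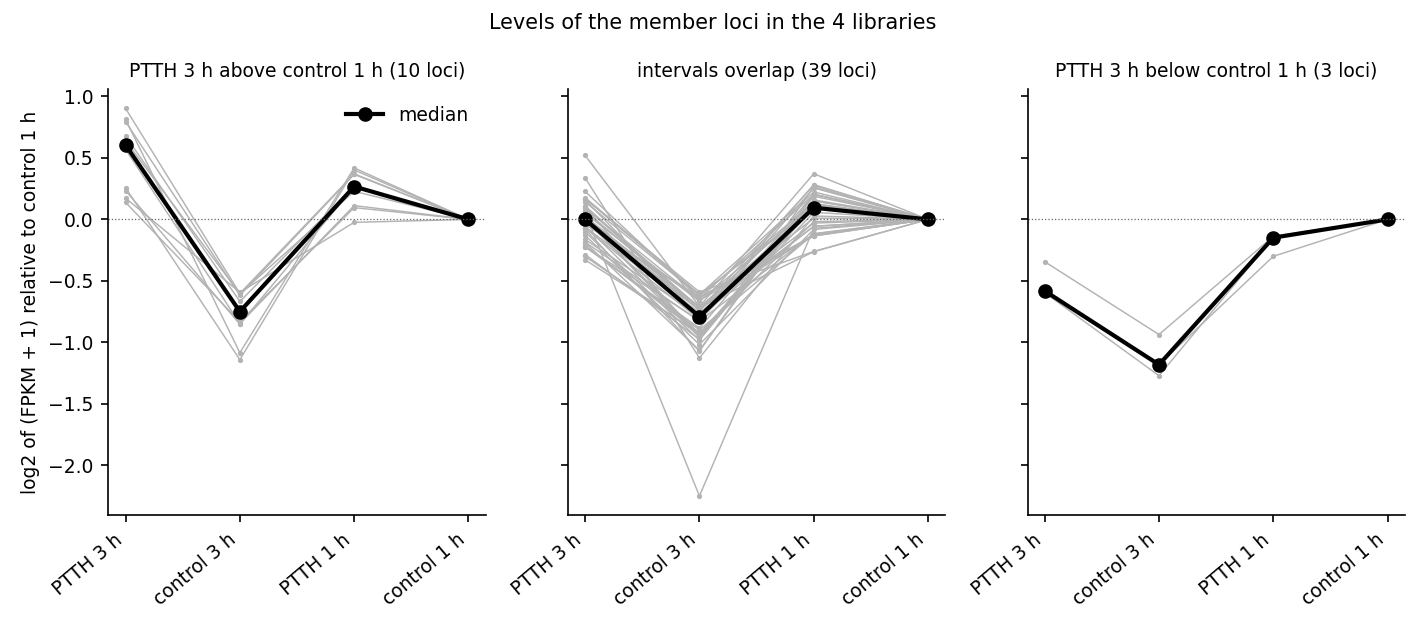
Log2 of (FPKM + 1) relative to control 1 h (dotted line at 0) for 52 members in PTTH 3 h, control 3 h, PTTH 1 h and control 1 h, with XLOC_003452 left out because it is listed at 0; grey lines are loci and black lines their medians. The 10 loci on the left have PTTH 3 h above control 1 h with limits apart, the 39 in the middle have overlapping limits and the 3 on the right have PTTH 3 h below control 1 h; control 3 h is the low point in each.

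Among the members with at least 20 implied fragments in each library, the 8 with the lowest ratio of control 3 h over control 1 h, taken on (FPKM + 1), included 3 loci of lower level not yet described. At nscaf3075 818035 to 819692 the values were 26.9 FPKM (23.4 to 30.5) in PTTH 3 h, 14.2 FPKM (11.5 to 16.9) in control 3 h, 35.6 FPKM (31.4 to 39.8) in PTTH 1 h and 30.8 FPKM (26.7 to 34.9) in control 1 h. At nscaf2865 3531243 to 3532211 they were 13.99 FPKM (11.9 to 16.1) in PTTH 3 h, 7.10 FPKM (5.47 to 8.73) in control 3 h, 14.5 FPKM (12.4 to 16.7) in PTTH 1 h and 15.4 FPKM (12.99 to 17.7) in control 1 h. At nscaf2829 2650254 to 2652711 they were 7.81 FPKM (5.88 to 9.74) in PTTH 3 h, 3.79 FPKM (2.36 to 5.23) in control 3 h, 9.51 FPKM (7.32 to 11.7) in PTTH 1 h and 8.46 FPKM (6.30 to 10.6) in control 1 h. Control 3 h was at 46.2%, 46.2% and 44.9% of control 1 h at these loci, and its limits were clear of those of the other libraries at each. The added 1 FPKM shrinks the ratios of low loci, and by plain FPKM control 3 h was at 36.9% of control 1 h at nscaf3005 305017 to 314064 and at 45.5% at the member on nscaf2886, neither of which is among those 8.

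Some members tracked the same level in 3 libraries very closely. At nscaf3033 22985 to 28403 the levels were 28.5 FPKM in PTTH 3 h, 16.7 FPKM (14.9 to 18.6) in control 3 h, 28.2 FPKM in PTTH 1 h and 28.00 FPKM in control 1 h. At nscaf2801 554551 to 558046 they were 63.9 FPKM in PTTH 3 h, 32.97 FPKM (30.8 to 35.2) in control 3 h, 68.2 FPKM in PTTH 1 h and 63.8 FPKM in control 1 h. At nscaf2589 4173185 to 4178457 they were 46.6 FPKM in PTTH 3 h, 28.4 FPKM (26.8 to 30.04) in control 3 h, 46.8 FPKM in PTTH 1 h and 48.7 FPKM in control 1 h. These loci, picked out after their values were seen, have limits that overlap among all libraries but control 3 h.

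Depth set the counting error of single members, while the spread between preparations was not measured at any depth. At least 100 implied fragments in each library were found at 36 members and at least 20 at 50. The exceptions were XLOC_003452, nscaf2987 485418 to 491434 with 13.02 implied fragments in control 3 h, and nscaf3022 779506 to 781988 with 1.01. The last of these had 7.81 FPKM (2.99 to 12.6) in PTTH 3 h, 0.789 FPKM (0 to 2.36) in control 3 h, 7.09 FPKM in PTTH 1 h and 7.51 FPKM in control 1 h, and its log2 ratio of 2.30 ± 0.75 for PTTH 3 h over control 3 h rests on about 1 fragment. The lowest member, nscaf3005 305017 to 314064, stood at 1.85 FPKM (1.45 to 2.25) in PTTH 3 h, 0.825 FPKM (0.542 to 1.11) in control 3 h, 1.99 FPKM in PTTH 1 h and 2.24 FPKM in control 1 h.

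After 1 h the members were near the control, as the rule required, with a median log2 ratio of PTTH 1 h over control 1 h of 0.10 against -0.07 over all tested loci. PTTH 1 h was above control 1 h by any amount at 34 members (64.2%) and below it at 19, while it was above at 32.7% of tested loci. Both libraries entered the rule, so the balance among members is shaped by their choice and was not tested. With limits apart, it was above at 8 members (3.32% of tested loci) and below at 2 (10.3% of tested loci). The 8 included 6 of the 11 loci at which PTTH 3 h exceeded control 1 h, among them nscaf2770 1009190 to 1010060 at 1261 FPKM in PTTH 1 h against 954 FPKM in control 1 h. The others were nscaf2210 486193 to 487822, at 47.3 against 38.7 FPKM, and nscaf3015 2563870 to 2567437, at 6.26 against 5.08 FPKM, both PTTH 1 h against control 1 h.

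Between the PTTH libraries the limits overlapped at 37 members, PTTH 3 h was above PTTH 1 h at 10 (19.8% of tested loci) and below it at 6 (20.5%). One of the 6 was nscaf3015 2563870 to 2567437, at 4.79 FPKM (4.28 to 5.31) in PTTH 3 h against 6.26 FPKM (5.67 to 6.86) in PTTH 1 h. Both bounds of the rule kept these ratios small, and the median log2 ratio of PTTH 3 h over PTTH 1 h was -0.05.

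At several bounds the edge of the group was narrow. Closest inside the bound on the controls was nscaf2857 8793 to 17414, where the log2 ratio of control 3 h over control 1 h was -0.59. Just outside it was nscaf1898 10257793 to 10263047 at -0.58, with 308 FPKM in PTTH 3 h, 192 FPKM in control 3 h, 275 FPKM in PTTH 1 h and 288 FPKM in control 1 h. For PTTH 3 h over control 3 h, nscaf3033 337333 to 346253 lay inside at a log2 ratio of 0.59 ± 0.14 and nscaf2818 25242 to 27075 outside at 0.57 ± 0.14. The bound on PTTH 1 h over control 1 h runs both ways, and its nearest loci were on opposite sides. There nscaf2674 7112672 to 7113215 lay inside at 0.41 and nscaf2888 4348686 to 4348911 outside at -0.60. For PTTH 3 h over PTTH 1 h the nearest locus outside was nscaf2853 963789 to 964980, at a log2 ratio of 0.65. For the limits of PTTH 3 h and control 3 h, nscaf2987 485418 to 491434 lay just inside, and nscaf2575 1500133 to 1501107, with 11.5 FPKM in PTTH 3 h and 6.62 FPKM in control 3 h, just outside. Counting error exceeds the distance between the sides at several of these edges, so membership there is a matter of the threshold.

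Members occupied short stretches of the genome. The rule did not use span, but the lower control that it demanded was itself more frequent at short loci, as given below. The span from the listed start to the listed end had a median of 1657 bp, against 4524 bp over all tested loci. A span under 2000 bp was found at 28 of 53 members (52.8%), and at 2364 of 8547 tested loci (27.7%). At the other end, 1 member (1.89%) spanned 10000 bp or more, nscaf3058 585754 to 597089, while 23.4% of tested loci did. The mirror-image group, in which control 3 h was 1.5-fold above control 1 h and PTTH 3 h 1.5-fold below control 3 h under otherwise equal conditions, had 203 loci (2.38% of tested loci). Its median span was 6286 bp, and 19.7% of it spanned under 2000 bp. A span includes introns, so it is not a transcript length.

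Span also moved with the control ratio across all tested loci. Among the 1209 tested loci under 1000 bp, the median log2 ratio of control 3 h over control 1 h was -0.05, and among the 1999 of 10000 bp or more it was 0.20. With limits apart, control 3 h was 1.5-fold below control 1 h at 6.37% of the loci under 1000 bp and at 1.55% of those of 10000 bp or more. Without that demand, which the rule did not make for the controls, the shares were 12.9% and 1.55%. PTTH 3 h was 1.5-fold above control 3 h, with limits apart, at 7.61% of loci under 1000 bp and at 4.60% of loci of 10000 bp or more. The short loci had fewer implied fragments, with a median of 62.4 in control 3 h against 524 in the long ones. From the shortest class of span to the longest, the lower control was seen at 12.9%, 8.74%, 5.02%, 2.96% and 1.55% of tested loci. Members were 1.16%, 1.21%, 0.594%, 0.552% and 0.0500% of the same classes. A short span was thus not particular to the members, since loci with the lower control were also more often short. The part of this table-wide slope in the short span of the members was not tested.

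**Figure D4:**
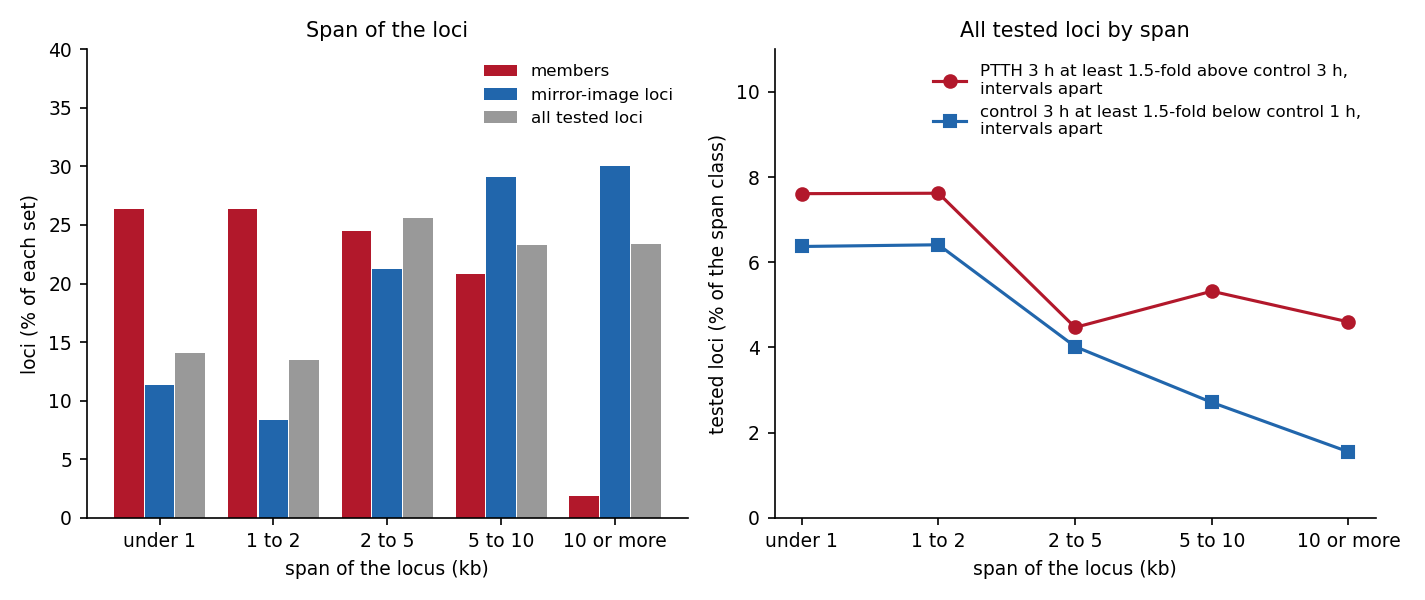
Left, share of the members, the mirror-image loci and all tested loci in 5 classes of span (kb); right, share of all tested loci in each class with PTTH 3 h at least 1.5-fold above control 3 h and with control 3 h at least 1.5-fold below control 1 h, limits apart in both. Members are mostly short where the mirror-image loci are mostly long, and the share with the lower control is 6.37% in the shortest class and 1.55% in the longest.

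On the scaffolds the members were scattered. They lay on 42 scaffolds, 9 of which held more than 1, and no member overlapped another locus of the table. On nscaf2589, which held 4, the only members that were consecutive tested loci lay 5028 bp apart. Levels at 5028990 to 5030021 were 27.8 FPKM (24.7 to 30.8) in PTTH 3 h, 9.78 FPKM (7.83 to 11.7) in control 3 h, 19.97 FPKM (17.3 to 22.6) in PTTH 1 h and 18.4 FPKM (15.7 to 21.1) in control 1 h. Levels at 5035049 to 5035904 were 14.6 FPKM (12.8 to 16.3) in PTTH 3 h, 9.29 FPKM (7.75 to 10.8) in control 3 h, 18.8 FPKM (16.7 to 20.8) in PTTH 1 h and 17.2 FPKM (15.1 to 19.3) in control 1 h. They had similar levels in 3 libraries and differed in PTTH 3 h, where the first stood above its PTTH 1 h level and the second below it, each with limits apart.

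A second pair lay 2672 bp apart on nscaf2828, the 245 bp locus at 697530 to 697775 and the 471 bp locus at 700447 to 700918. The second had 42.8 FPKM (33.1 to 52.5) in PTTH 3 h, 23.4 FPKM (16.1 to 30.8) in control 3 h, 48.5 FPKM (37.7 to 59.2) in PTTH 1 h and 39.8 FPKM (29.6 to 50.04) in control 1 h. Between them a locus at 698876 to 699251 stood at 1.46 FPKM in PTTH 3 h, 0.678 FPKM in control 3 h, 1.66 FPKM in PTTH 1 h and 1.09 FPKM in control 1 h. Whether these short entries are pieces of 1 transcript is not given in the table.

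Most neighbours, meaning the next tested loci on the scaffold at any distance, did not share the pattern. Some lay far off, since a neighbour of nscaf3015 2563870 to 2567437 began at 3857540. Of the 99 tested loci that lay next to a member and were no member themselves, 3 (3.03%) had control 3 h 1.5-fold below control 1 h, and 6 (6.06%) had PTTH 3 h 1.5-fold above control 3 h with limits apart. Both shares are near those of all tested loci, 5.35% and 5.57%. The highest PTTH ratio among these neighbours was next to nscaf2136 2705653 to 2706007, at 2648133 to 2665164, with 190 FPKM in PTTH 3 h, 67.98 FPKM in control 3 h, 176 FPKM in PTTH 1 h and 62.1 FPKM in control 1 h, a locus higher with PTTH at both times.

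The number of members depended on how the libraries were scaled. The median tested locus was lower in PTTH 3 h than in control 3 h, at a log2 ratio of -0.19, and dividing each library by its median ratio to control 1 h brought this to -0.01. After that centring 117 loci met the rule, all 53 members among them, and the mirror-image group had 96 loci. The members' own median log2 ratios were then 0.97 for PTTH 3 h over control 3 h and -0.86 for control 3 h over control 1 h. The direction of the difference at the members was the same under all 3 scalings tried. Each divided control 3 h by more than the other libraries (1.05, 1.04 and 1.09), which widens both ratios, so this direction was fixed in advance. The balance of members against mirror-image loci was not, at 53 against 203 as deposited, 117 against 96 after median centring, 93 against 120 after upper-quartile scaling and 86 against 116 at a fixed total of FPKM.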

How the data were processed

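The authors deposited 1 table of FPKM values with lower and upper confidence limits for 14622 loci in 4 libraries, per the file headers. Its name refers to Cuffdiff, and the submitters' processing notes name TopHat, SAMtools and CASAVA 1.8.0 with no role for each. Not given in the sources used here are the build, the gene models, how libraries were scaled to each other, the kind of limit and whether starts count from 0 or 1. Libraries were paired-end mRNA libraries, per the labels' protocols.

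Each ratio is the log2 of a quotient of (FPKM + 1) values, so differences of low loci are understated. Folds are plain ratios of FPKM, and intervals are called apart when the authors' limits do not overlap. Implied fragments are the squared ratio of a value to its standard deviation, taken as the distance to the upper limit divided by 2. No test was possible with 1 library per group. The selection step was tested on simulated data. The members and lists were chosen with earlier results of these data known. Named in full were the 8 members highest in mean FPKM, the 8 with the largest PTTH ratio at 3 h and the 8 with the lowest control ratio, among those with at least 20 implied fragments in each library, and members next to each other, 18 in all; others named were chosen after their values were seen. Gene lists fixed for ecdysteroid synthesis, PTTH signalling, ecdysone response, stress, translation and cell type markers could not be used, for want of gene names. Alternatives were pseudocounts of 0.1 and 5 FPKM, other filters, scalings and fold thresholds, the demand on intervals and a minimum of fragments. Python 3.11.15, numpy 2.4.6, pandas 2.3.3 and matplotlib 3.10.9 were used.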

Additional observations from a re-analysis of the deposited data

How the results depend on the processing

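Members numbered 53 as deposited, mirror-image loci 203, loci with control 3 h 1.5-fold below control 1 h 457, and loci with PTTH 3 h 1.5-fold above control 3 h and intervals apart 476. In that order, a fold threshold of 1.3 gave 166, 622, 1051 and 747, and one of 2 gave 5, 20, 106 and 205. Median centring gave 117 members, 96 mirror-image loci and 754 higher loci. Upper-quartile scaling gave 93 members and 120 mirror-image loci, and a fixed total of FPKM gave 86, 116 and 712 loci with the lower control. All 53 members were kept under these scalings, each of which lowers control 3 h more than the other libraries and so widens the ratios that chose them. A pseudocount of 5 FPKM gave 29 members (26 of the 53), 99 mirror-image loci and 222 loci with the lower control, since it shrinks the ratios of low loci. A pseudocount of 0.1 FPKM, no filter, a filter at 5 FPKM, no demand on intervals, intervals apart between the controls too and a minimum of 20 implied fragments gave 49 to 77 members. At the 18 loci named by rule, the log2 ratios between control 3 h and PTTH 3 h or control 1 h kept their sign. That was fixed in advance, since a shared pseudocount cannot reverse a ratio and the scaling divisors ran only from 0.920 to 1.09. The ratios between the PTTH libraries and between the libraries of 1 h, small by the rule, were not recomputed per locus. No paired analysis was possible because each group is 1 library. Every member rests on the single control 3 h library, and leaving it out would leave no comparison. Depth limits the members with few implied fragments in it.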

Other observations

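Besides the 53 members, 25 tested loci had the same 1.5-fold lower control at 3 h and the same 1.5-fold higher PTTH 3 h with intervals apart, but were not level under PTTH. PTTH 3 h was 1.5-fold above PTTH 1 h at 14 of them and 1.5-fold below it at 4. PTTH 1 h was 1.5-fold above control 1 h at 8 and below it at 3, and 4 of the 25 passed both bounds. The examples that follow were chosen after their values were seen.

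A locus at nscaf2883 777620 to 778947 stood at 141 FPKM in PTTH 3 h, 17.8 FPKM in control 3 h, 41.4 FPKM in PTTH 1 h and 28.3 FPKM in control 1 h. One at nscaf3003 2253955 to 2266970 had 34.9 FPKM in PTTH 3 h, 2.94 FPKM in control 3 h, 8.73 FPKM in PTTH 1 h and 5.72 FPKM in control 1 h. At both, PTTH 3 h stood above every other library, and PTTH 1 h above control 1 h.

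The opposite order of the PTTH libraries was seen at nscaf2136 1986232 to 1991858, with 10.7 FPKM in PTTH 3 h, 6.30 FPKM in control 3 h, 19.2 FPKM in PTTH 1 h and 16.7 FPKM in control 1 h. That locus was lower at 3 h than at 1 h under both conditions, and lowest without hormone.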
